A study of Mus musculus with 352 samples.

Results

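The immediate early genes Fos, Fosb, Jun, Junb, Egr1, Atf3, Nr4a1, Nr4a3, Btg2 and Ier2 were followed in mouse tibialis anterior, a fast muscle of the lower leg. They are 10 of the 14413 genes in the deposited expression table, chosen by name and matched through their Ensembl identifiers. All 10 were present in the table. The study measured whole-muscle RNA by sequencing in 352 C57BL/6 mice, 15 groups of 22 to 25 animals. Muscles were collected every 4 h over a day, from 3 to 5 mice of a group at each of 6 zeitgeber times (ZT, counted in hours from the start of light). It asked how clock function in brain and in muscle, age and feeding time shape daily muscle physiology. Expression is given as log2 FPKM, the log2 of fragments scaled by transcript length and by library size.

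The groups differ in where Bmal1 (listed as Arntl), a core clock transcription factor, can be made. Wild-type mice (WT) carry the intact gene. Mice labelled KO are Bmal1(stopFL/stopFL), Cre(-/-): a floxed stop cassette blocks the gene in every tissue. Mu-RE mice are Bmal1(stopFL/stopFL), Hsa-Cre(-/tg), in which a skeletal actin promoter drives Cre and Bmal1 returns in skeletal muscle. Br-RE mice are Bmal1(stopFL/stopFL), Syt10-Cre(-/tg), with Bmal1 returned in brain, and RE-RE mice carry both Cre transgenes. All 4 of these genotypes share the stop cassette, so tissues that neither Cre reaches lack Bmal1 in each of them. Mice fed ad libitum (ALF) were 10 to 12 weeks old (called 10 weeks below) for 23 WT, 25 Mu-RE, 24 RE-RE, 23 KO and 23 Br-RE animals, and 26 weeks old for 22 WT, 24 Mu-RE, 24 RE-RE, 24 KO and 22 Br-RE animals. Time-restricted feeding (TRF) was given to 24 WT, 23 Mu-RE and 23 KO mice of 26 weeks. Old WT mice of 85 to 116 weeks were on ALF (24 mice) or TRF (24 mice). The labels do not give the feeding window.

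Immediate early genes are transcribed within minutes of a stimulus because the factors that switch them on, among them SRF with its ternary complex partners and CREB, already sit in the cell and are activated by kinases. Their products are mostly transcription factors, and their messages decay fast. In muscle they are known to respond to contraction, stretch, injury, stress hormones and feeding signals, and also to handling and the agonal period before tissue is frozen.

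The reads per library, recovered from the steps between the deposited values, ran from 14.3 to 46.3 M with a median of 22.1 M. Transcripts that define muscle fibres were abundant, with median levels of 16714 FPKM for Acta1, 8677 FPKM for Ckm and 7283 FPKM for Myh4. Transcripts of other cells were lower but present. Among satellite cell markers Pax7 was lowest at 0.33 FPKM, with Cdh15 at 6.02 FPKM. Among macrophage markers Adgre1 was lowest at 0.196 FPKM, with C1qa at 2.19 FPKM. Endothelial Cdh5 was at 20.28 FPKM, pericyte Rgs5 at 81.94 FPKM and fibroblast Dcn at 45.55 FPKM. The whole-gene level of Arntl did not check the KO label, since it ran from 2.99 to 4.31 log2 FPKM in the 70 KO mice and from 0.13 to 5.14 in the 189 WT, old and Mu-RE mice. Dbp, a direct clock target, had a median of 0.30 log2 FPKM in KO mice and 3.23 in those others. In a bulk sample, fewer cells of a type and less RNA per cell cannot be told apart. In every gene the Br-RE and RE-RE mice of an age together had the same mean as the other mice of that age. Their levels were therefore tested only against each other.

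Promoter sequence was available from RefSeq (GRCm38.p6, 250 bases before each start site) for 8 of the 10 genes: all but Egr1 and Ier2. The cAMP response element core TGACG, the core of the sequence CREB binds, was searched on both strands, overlapping matches counted. It occurred 2 times in the Fos window (at positions -129 and -66 from the start), 4 times each for Nr4a1 and Nr4a3, 2 times, overlapping within TGACGTCA, for Btg2, once each for Fosb, Junb and Atf3, and not for Jun. Over all 32817 promoter windows 17.7% held it. The E-box CACGTG that BMAL1 with CLOCK can bind was in 0 of the 8 windows (6.02% of all windows). The AP-1 site TGANTCA (6.75% of all windows) and the CArG box that SRF binds (1.47% of all windows) were also in 0 of the 8. TATAAA was found for Fos, at -33, and for none of the other 7 (12.4% of all windows). A match says only that the letters are there. A missing match covers only these 250 bases and says nothing about sites farther out or about Egr1 and Ier2. The stretches for the 4 genes on which the level and day-time results below mainly turn are shown 5′ to 3′ on the strand of the gene, with TGACG or its reverse complement CGTCA in capitals. They lie at chr12:85473640-85473889 (plus strand, Fos), chr1:191183334-191183583 (minus strand, Atf3, whose last 7 bases, with its 1 match, lie in an annotated exon), chr4:48045055-48045152 (plus strand, Nr4a3, the 98 bases outside an annotated exon, with 3 of its 4 matches) and chr1:134079156-134079405 (minus strand, Btg2).
Fos: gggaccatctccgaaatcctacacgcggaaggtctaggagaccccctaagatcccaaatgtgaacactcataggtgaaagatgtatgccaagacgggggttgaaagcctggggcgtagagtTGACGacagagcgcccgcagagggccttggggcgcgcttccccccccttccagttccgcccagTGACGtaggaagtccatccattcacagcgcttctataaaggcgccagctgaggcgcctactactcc
Atf3: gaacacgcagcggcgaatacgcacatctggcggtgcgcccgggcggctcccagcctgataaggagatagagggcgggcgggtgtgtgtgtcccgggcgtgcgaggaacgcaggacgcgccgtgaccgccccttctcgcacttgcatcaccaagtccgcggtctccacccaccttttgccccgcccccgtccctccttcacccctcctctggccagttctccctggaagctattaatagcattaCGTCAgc
Nr4a3: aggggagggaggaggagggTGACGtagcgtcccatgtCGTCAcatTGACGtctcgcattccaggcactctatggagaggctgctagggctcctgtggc
Btg2: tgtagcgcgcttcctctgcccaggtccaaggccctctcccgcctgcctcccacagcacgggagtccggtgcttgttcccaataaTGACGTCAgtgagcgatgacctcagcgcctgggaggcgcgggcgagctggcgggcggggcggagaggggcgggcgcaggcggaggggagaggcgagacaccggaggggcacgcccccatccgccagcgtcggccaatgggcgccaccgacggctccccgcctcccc

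The members differed widely in abundance. Nr4a1, an orphan nuclear receptor linked to glucose handling in muscle (chromosome 15:101254269-101274795, plus strand), was the most abundant with a median of 41.6 FPKM over all mice, about 3222 reads at the median depth. Jun, a partner with which FOS proteins form AP-1 (chromosome 4:95049034-95052222, minus strand), followed at 22.4 FPKM. Btg2, an antiproliferative cofactor of mRNA deadenylation, was at 7.14 FPKM, and Junb, another AP-1 subunit, at 3.76 FPKM. Ier2, a small nuclear protein, was at 3.24 FPKM and Atf3, a stress-induced repressor of the ATF family, at 2.67 FPKM. Fos, the AP-1 subunit that gave the class its fame, was at 1.64 FPKM (85.1 reads), Nr4a3 at 1.33 FPKM and the zinc finger factor Egr1 on chromosome 18 at 1.2 FPKM. Fosb was lowest at 0.0926 FPKM, about 12.8 reads per library, so its values carry more counting error than those of the other 9.

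**Figure D1:**
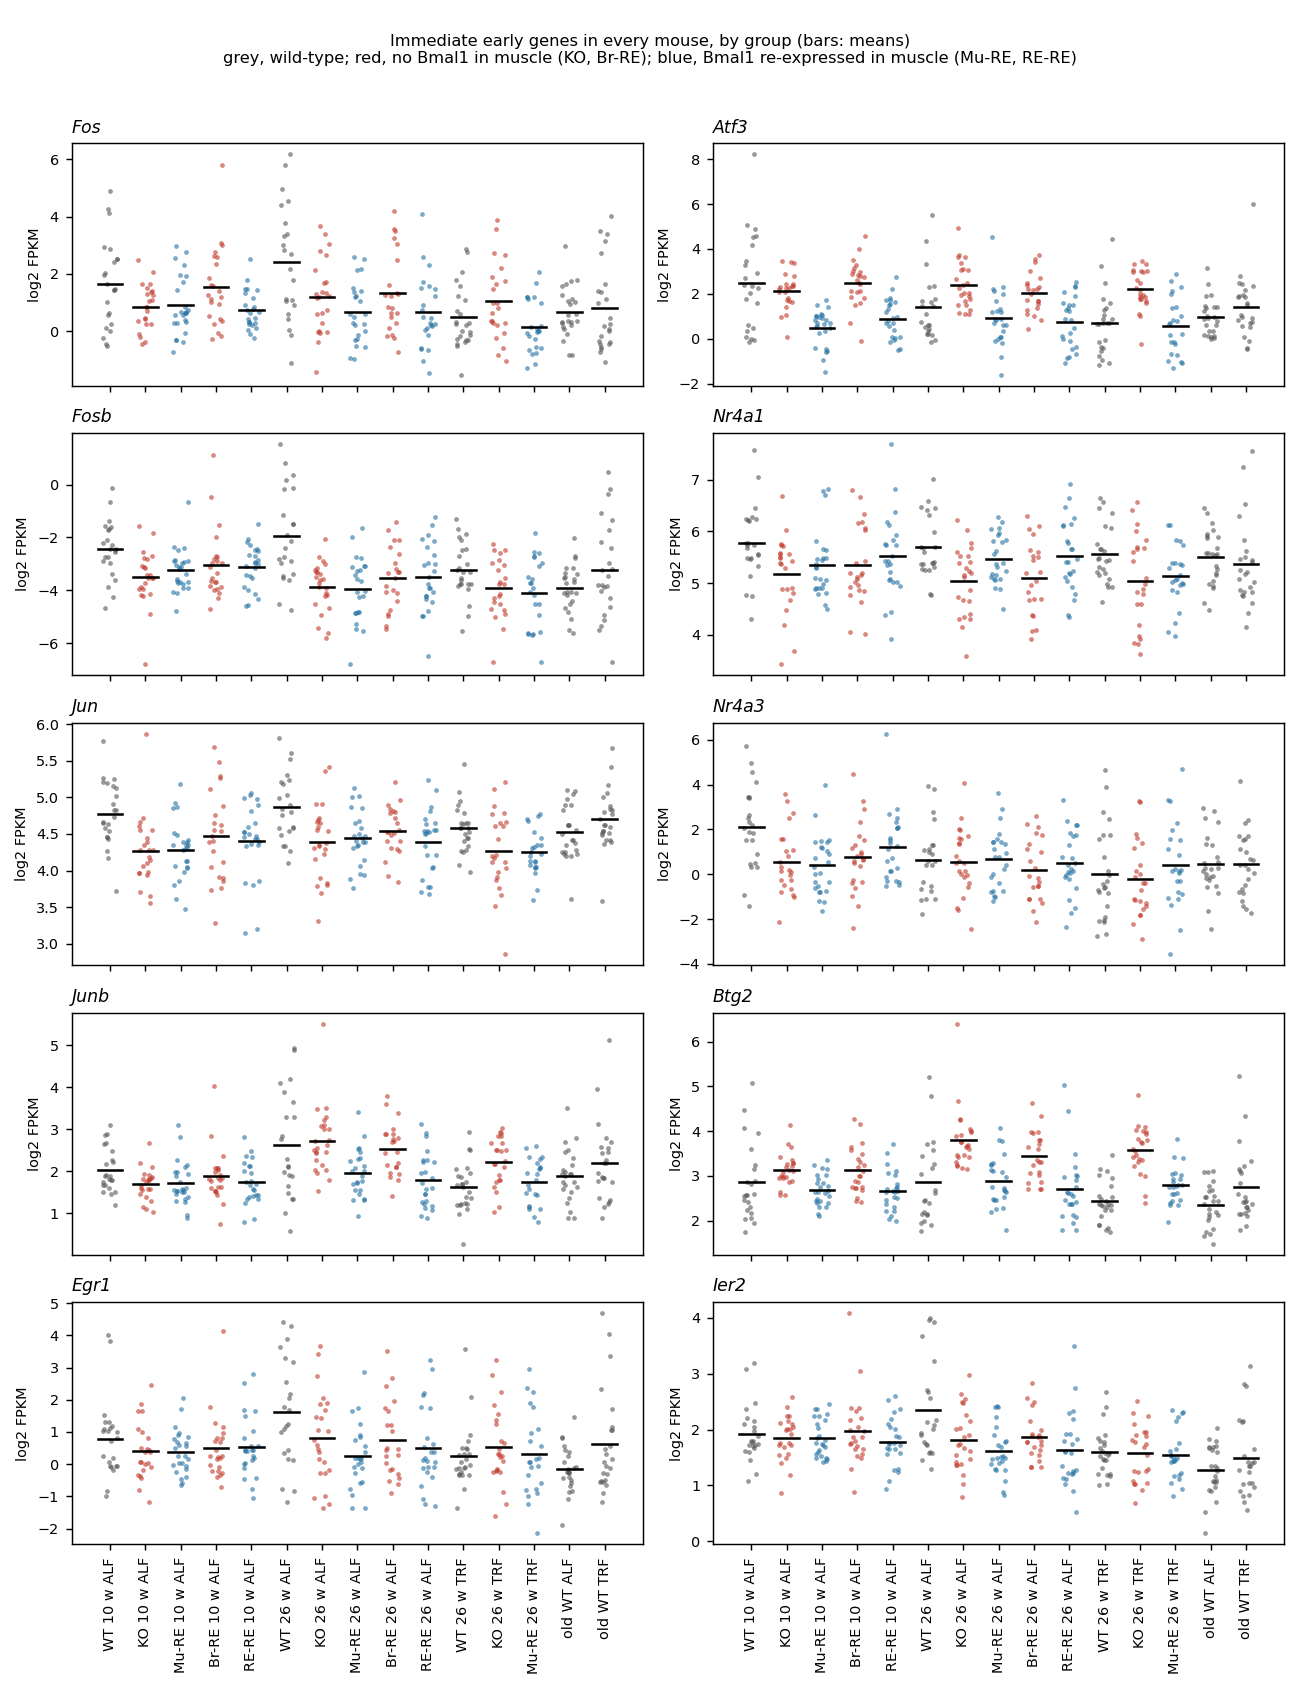
Level of each immediate early gene in every mouse (log2 FPKM, vertical axis) by group (horizontal axis); points are mice, bars group means, grey WT, red groups without Bmal1 in muscle and blue groups with Bmal1 returned to muscle. Fos is highest on average in WT mice of 26 weeks on ALF (2.40), and Atf3 averages 2.04 to 2.48 in the 5 red groups and 0.49 to 0.93 in the 5 blue groups, with the Br-RE and RE-RE values centred apart from the rest.

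Mice of one group and time point differed in these genes more than in most others, though by far only for some members. The standard deviation (SD) between mice of the same group and time was 1.35 log2 units for Nr4a3, 1.14 for Fos, 1.13 for Fosb, 1.06 for Egr1 and 1.05 for Atf3. Only 1.84% of the 12849 genes tested had a larger SD than Nr4a3 and 3.04% a larger one than Atf3. Nr4a1 (0.61), Junb (0.59), Btg2 (0.56), Ier2 (0.47) and Jun (0.39) were steadier, against a median of 0.27 over all genes. A larger SD than that of Ier2 was found in 17.6% of genes, and than that of Jun in 25.6%. One SD thus meant a 2.21-fold step for Fos and a 1.31-fold step for Jun. The SD of Fos ran from 0.60 in RE-RE mice of 10 weeks to 1.70 in WT mice of 26 weeks on ALF, and that of Atf3 from 0.69 in RE-RE mice of 10 weeks to 1.72 in WT mice of 10 weeks. When the spread was compared between groups in limma, a linear model with moderated variance, 0 members and 0% of all genes passed in any of 11 comparisons. An unadjusted p under 0.05 was found for 2 members in KO against WT mice of 10 weeks (709 genes), Btg2 at -0.36 and Atf3 at -0.84. On TRF against ALF it was found for Junb in KO mice (-0.31, 415 genes) and for Egr1 in old mice (0.79, 530 genes). It was found for 0 members in each of the other 8 comparisons (604 to 1417 genes).

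The order of the group means is given with the steps between neighbours, which are small when 11 means are sorted and do not test the groups against each other. Among the 11 WT, old, KO and Mu-RE groups, neighbouring group means differed by less than the smaller of their 2 SDs at all 10 steps for Fos, Fosb, Jun, Junb, Egr1, Atf3, Nr4a1 and Ier2. Fos ran from 0.15 ± 0.92 log2 FPKM (SD, n = 23) in Mu-RE mice on TRF to 2.40 ± 2.01 (n = 22) in WT mice of 26 weeks on ALF, and Fosb from -4.08 to -1.94 and Jun from 4.25 to 4.86 in the same 2 groups. Egr1 and Ier2 were lowest in old mice on ALF (-0.16 and 1.27) and highest in WT mice of 26 weeks on ALF (1.63 and 2.35). Atf3 was lowest in Mu-RE mice of 10 weeks (0.49) and highest in WT mice of 10 weeks (2.50). Nr4a1 and Nr4a3 were lowest in KO mice on TRF (5.05 and -0.22) and highest in WT mice of 10 weeks (5.77 and 2.1). The step below that highest group was the one step for Nr4a3 outside the SD, 1.42 above Mu-RE mice of 26 weeks on ALF. Junb (1.62 in WT on TRF) and Btg2 (2.35 in old mice on ALF) had their lowest means in the groups in parentheses and were highest in KO mice of 26 weeks on ALF, at 2.73 and 3.81. Btg2 also had 1 step outside the SD, 0.44 between KO mice of 10 weeks and KO mice on TRF. Among the 4 Br-RE and RE-RE groups, Atf3 had a step of 1.14 between RE-RE mice of 10 weeks (0.90) and Br-RE mice of 26 weeks (2.04), and Junb a step of 0.65 between Br-RE mice of 10 (1.88) and 26 weeks (2.54).

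Levels between groups were tested in limma on the daily mean of a fitted 24 h curve, with an adjusted p under 0.05 counted as passing. P-values were adjusted over the 12849 genes with a mean of at least -2 log2 FPKM. Fosb, at -3.37, lay under that limit, so counts are of the other 9 members, and its values are given from a fit without the limit. Each mouse is 1 library, so p-values measure the spread between mice.

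Loss of Bmal1 throughout the body was first compared with WT at 10 weeks. Jun, Junb, Nr4a1 and Nr4a3 were lower in KO mice, 4 of the 9 tested, beside 20.6% of all genes. None of the 9 was higher in limma, beside 19.3% of all genes, and at an unadjusted p under 0.05 there were 5 members, all lower, among 6045 genes. The median member differed by -0.44 log2 units and the median gene by 0.00.

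Among the AP-1 subunits, Jun ran from 3.73 to 5.77 log2 FPKM (median 4.73) in WT and from 3.55 to 5.87 (median 4.27) in KO mice. The ranges overlapped, but 22 of 23 KO mice lay below the WT median. Jun fell by 0.52 ± 0.13 (standard error, SE; 1.43-fold, adjusted p = 0.000977 in limma). Junb ran from 1.21 to 3.10 (median 1.88) in WT and from 1.03 to 2.66 (median 1.76) in KO mice, a difference of -0.34 ± 0.13 (adjusted p = 0.0311). The call for Junb was lost without any one of WT replicates 1, 4 or 19 or KO replicate 16 (adjusted p 0.0523 to 0.0611). Fos had a median of 1.46 (range -0.54 to 4.88) in WT and 0.86 (range -0.45 to 2.48) in KO mice. Its difference of -0.82 ± 0.34 gave an adjusted p of 0.0544, which passed when any one of 11 of the 46 mice was left out. Without the limit on low genes, Fosb was lower by 1.06 ± 0.31 (difference -1.06, adjusted p = 0.0055), and 21 of 23 KO mice were below the WT median.

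The 2 nuclear receptors were also lower. Nr4a3 ran from -1.42 to 5.72 (median 2.05) in WT mice and from -2.14 to 3.60 (median 0.21) in KO mice. With 19 of 23 KO mice below the WT median, its difference was -1.57 ± 0.49 (2.96-fold lower, adjusted p = 0.00883). Nr4a1 ran from 4.30 to 7.58 (median 5.73) in WT and from 3.43 to 6.68 (median 5.39) in KO mice, a difference of -0.58 ± 0.20 (adjusted p = 0.0195). Egr1 (-0.43, adjusted p = 0.229), Atf3 (-0.44, adjusted p = 0.434), Btg2 (0.26, adjusted p = 0.276) and Ier2 (-0.10, adjusted p = 0.593) did not pass. The Atf3 values of WT mice include the highest of the whole series, 8.21 in replicate 1 at ZT 0, and without that mouse the Atf3 difference was -0.21 and 3 members were lower, since Junb no longer passed. Without the first or the second mouse of each time point 2 members were lower.

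Related genes moved in both directions, and their counts are to be read beside the shares of all genes given above for this comparison. Of 23 tested genes in a list of 27 other immediate early genes, 10 were lower and 1 higher (list median -0.33), among them Ier3 (-1.2, adjusted p = 1.07e-11), Trib1 (-0.98, adjusted p = 9.07e-07) and Csrnp1 (-1.53, adjusted p = 9.61e-07). Of 20 feedback inhibitors of the signalling that induces these genes, 6 were lower and 3 higher, with Spry2, an inhibitor of receptor kinase signalling, at -0.52 and Dusp4, a MAP kinase phosphatase, at -0.69. Rgs2, which damps G protein signalling, was higher by 0.86. Of 26 upstream factors and kinases 11 were higher and 4 lower, the latter with Srf, the factor that binds CArG boxes, at -0.29. Heat shock genes were lower for 5 of 8 (Hspa1b -1.74, Hspa1a -1.60) and glucocorticoid response genes for 5 of 9 (Fkbp5 -1.39, Tsc22d3 -0.64). The summed heat shock level ran from 367 to 2727 FPKM (median 466) in WT and from 320 to 614 FPKM (median 418) in KO mice. How far the heat shock differences rest on single WT mice was not tested.

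Markers of other cells moved with this comparison. Macrophage and lymphoid markers were lower for 6 of 7 tested, and their summed level ran from 20.4 to 60.9 FPKM in WT and 8.44 to 40.6 FPKM in KO mice of 10 weeks. Endothelial markers were higher for 5 of 7 (45.9 to 96.9 FPKM in WT and 68.3 to 125 FPKM in KO mice). Their part in the results on the immediate early genes was not tested.

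At 26 weeks, the same comparison gave 4 lower members, Fos, Jun, Nr4a1 and Ier2 (21.5% of all genes were lower), and 2 higher ones, Atf3 and Btg2 (23.6% of all genes were higher). The median member differed by -0.47. Fos ran from -1.11 to 6.17 (median 2.45) in WT and from -1.43 to 3.68 (median 1.2) in KO mice. With 19 of 24 KO mice below the WT median, it fell by 1.17 ± 0.46 (2.25-fold, adjusted p = 0.0338). This call for Fos was lost without any one of 7 of the 46 mice (WT replicates 5, 8, 17, 20, 23 and 24 and KO replicate 3, adjusted p 0.0503 to 0.0631). Jun differed by -0.47 ± 0.13 (adjusted p = 0.00234), Nr4a1 by -0.65 ± 0.18 (adjusted p = 0.00257) and Ier2 by -0.51 ± 0.17 (adjusted p = 0.0111). Fosb, fitted without the limit, was lower by a difference of -1.90 ± 0.38 (adjusted p = 6.47e-05). Egr1 at -0.80 (adjusted p = 0.113) did not pass, but did without KO replicate 11 (adjusted p = 0.0477). Junb at 0.11 and Nr4a3 at -0.12 did not pass either.

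The ranges of the higher members overlapped as well. Atf3 ran from -0.15 to 5.52 (median 0.92) in WT and from 1.12 to 4.95 (median 2.15) in KO mice of 26 weeks. All 24 KO mice were above the WT median, and Atf3 rose by 0.98 ± 0.37 (1.98-fold, adjusted p = 0.0286). Btg2 ran from 1.76 to 5.21 (median 2.54) in WT and from 3.15 to 6.40 (median 3.68) in KO mice. All 24 KO mice were again above the WT median, and 14 of the 22 WT mice were below every KO mouse. Btg2 rose by 0.95 ± 0.22 (1.94-fold, adjusted p = 0.000565). With 1 FPKM added before the log, or without the first or the second mouse of each time point, 1 member was higher, and in the latter pair 2 were lower. In 23 tested other immediate early genes 4 were higher and 3 lower, with Gadd45b, a stress-induced growth arrest gene, at -1.72 (adjusted p = 3.76e-13), Sik1, a kinase that restrains CREB coactivators, at 1.61 and the FOS relative Fosl2 at 0.53. Rgs2 was higher by 1.53 and Dusp10, a phosphatase of stress kinases, lower by 1.21 (difference -1.21), in a list of 20 with 3 higher and 7 lower. Heat shock genes were higher for 6 of 8 (Hspa1a 0.92, Bag3 0.61), macrophage and lymphoid markers lower for 6 of 7 and endothelial markers higher for 7 of 7. The part of these other cells and of the heat shock genes in the result was not tested.

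WT mice of 26 weeks on ALF had high values of several members at ZT 4 and ZT 8, though not in every mouse. In the 7 WT mice of 26 weeks on ALF at ZT 4 and ZT 8, Fos ran from 1.11 to 6.17 with a median of 4.39, against a median of 1.09 (range -1.11 to 4.53) in the 15 mice of that group at other times and 0.33 (range -1.52 to 5.79) in the 109 mice of other groups at ZT 4 and ZT 8. The lowest of the 7 Fos values was reached by 7 of the 15 and 27 of the 109. Junb ran from 3.29 to 4.94 in those 7 mice, and none of the 15 others of the group and 6 of the 109 reached their lowest value. The same 7 mice had medians of 3.62 for Egr1, 3.67 for Ier2 and 0.18 for Fosb, against 0.19, 1.51 and -3.51 in the 109. Their lowest value was reached by 19 of the 109 for Egr1 and for Ier2, 51 for Fosb and 32 for Jun. The other 4 members overlapped more: the lowest of the 7 was reached by 42 of the 109 for Nr4a1, 72 for Nr4a3, 74 for Atf3 and 107 for Btg2, and by 8, 10, 8 and 15 of the 15. Nr4a1 had medians of 5.70 in the 7 mice and 5.38 in the 15. Their heat shock genes (mean log2 FPKM 3.18 to 4.27, against 2.72 to 4.73 in the 109), their macrophage and lymphoid markers (-0.23 to 1.16, against -1.12 to 2.04) and their endothelial markers (2.47 to 3.10, against 2.15 to 3.87) overlapped the rest. Without ZT 4 and ZT 8, an alternative chosen after these values were seen, 0 members were lower in KO than WT mice of 26 weeks in limma (Fos -0.23, Jun -0.25, Nr4a1 -0.46, Ier2 -0.01). Here and below, this alternative also leaves fewer mice and fits the remaining times as separate levels in place of the daily curve. A changed call can come from either step. Nr4a1 kept a difference of -0.46 of its -0.65. The share of all genes passing under it is not given here, so the loss of calls cannot be set against that of other genes. With those times left out 3 were higher, Atf3 by 1.44 (adjusted p = 0.00136), Btg2 by 1.32 (adjusted p = 3.21e-08) and Junb by 0.65 (adjusted p = 0.0121). Dropping times at which WT mice were high by itself favours a higher value of KO minus WT. These 3 calls are therefore no separate test of a rise.

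Returning Bmal1 to muscle alone was tested against KO mice. At 10 weeks 2 of the 9 members were lower in Mu-RE mice, Atf3 and Btg2 (15.3% of all genes), and 0 were higher in limma (16.2% of all genes). At an unadjusted p under 0.05 the same 2 members were found among 5096 genes. Atf3 ran from 0.09 to 3.47 (median 2.25) in KO and from -1.48 to 1.72 (median 0.69) in Mu-RE mice. All 25 Mu-RE mice were below the KO median and 16 of 23 KO mice were above every Mu-RE mouse. Atf3 fell by 1.66 ± 0.23 (3.17-fold, adjusted p = 9.25e-08). Btg2 ran from 2.56 to 4.14 (median 3.11) in KO and from 2.09 to 3.36 (median 2.65) in Mu-RE mice, with 21 of 25 Mu-RE mice below the KO median. It fell by 0.45 ± 0.10 (1.37-fold, adjusted p = 0.00047). The other 7 members differed by -0.14 (Nr4a3) to 0.19 (Nr4a1), and the median member by 0.02.

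At 26 weeks 3 members were lower in Mu-RE than KO mice, Atf3, Btg2 and Junb (15.5% of all genes), and Nr4a1 was higher (16.2% of all genes). Atf3 ran from 1.12 to 4.95 in KO and from -1.60 to 4.53 (median 0.87) in Mu-RE mice. With 21 of 24 Mu-RE mice below the KO median and 14 below every KO mouse, Atf3 fell by 1.51 ± 0.32 (2.85-fold, adjusted p = 0.000182). Btg2 ran from 1.79 to 4.08 (median 2.74) in Mu-RE mice, 17 of 24 of them below every KO mouse, and fell by 0.93 ± 0.18 (1.90-fold, adjusted p = 7.04e-05). Junb had a median of 2.59 (range 1.54 to 5.52) in KO and 1.94 (range 0.93 to 3.42) in Mu-RE mice. With 22 of 24 Mu-RE mice below the KO median, it fell by 0.77 ± 0.20 (adjusted p = 0.00261). Nr4a1 had medians of 5.18 in KO and 5.38 in Mu-RE mice, and rose by 0.43 ± 0.16 (adjusted p = 0.0408). This call for Nr4a1 was lost when the variance was shared by all 15 groups, and without the second or the fourth mouse of each time point.

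The same step was compared against a background of Bmal1 in brain, as RE-RE against Br-RE mice. At 10 weeks Atf3 and Btg2 were again the members that passed, both lower (15% of all genes), with 0 higher in limma (14.2% of all genes) and 3 members at an unadjusted p under 0.05 among 4940 genes. Atf3 ran from -0.11 to 4.56 (median 2.61) in Br-RE and from -0.48 to 2.77 (median 0.86) in RE-RE mice, 23 of 24 of which were below the Br-RE median. It differed by -1.56 ± 0.25 (2.94-fold lower, adjusted p = 2.69e-06). Btg2 had medians of 3.0 and 2.65 and differed by -0.45 ± 0.13 (adjusted p = 0.00669). Fos at -0.78 gave an adjusted p of 0.0565. At 26 weeks Atf3 (-1.31 ± 0.30, adjusted p = 0.000506), Btg2 (-0.73 ± 0.18, adjusted p = 0.0017) and Junb (-0.76 ± 0.18, adjusted p = 0.000861) were lower (17% of all genes), and 0 were higher in limma (16.4% of all genes), with 4 members at an unadjusted p under 0.05 among 5397 genes. Atf3 had medians of 2.09 in Br-RE and 0.87 in RE-RE mice, Btg2 of 3.34 and 2.57, and Junb of 2.58 and 1.66. In each of these, 20 or 21 of the 24 RE-RE mice lay below the Br-RE median. The muscle-against-none and both-against-brain comparisons share no mouse, but KO and WT mice appear in several of the others. Nr4a1 was 0.44 higher at 26 weeks without passing (adjusted p = 0.0896).

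**Figure D2:**
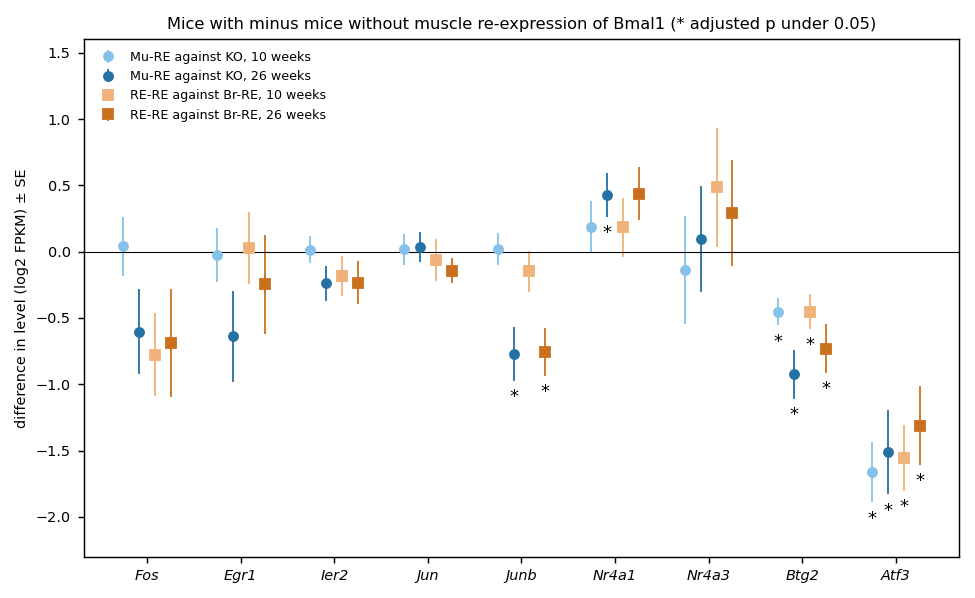
Difference in daily mean level (log2 units, vertical axis, bars SE) of 9 immediate early genes (horizontal axis) in the 4 comparisons of mice with and without Bmal1 returned to muscle; stars mark adjusted p under 0.05. Atf3 lies between -1.66 and -1.31 and Btg2 between -0.93 and -0.45 in all 4, and Junb at -0.77 and -0.76 in the pair at 26 weeks.

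In these 4 comparisons the macrophage and lymphoid markers did not pass for any of 7 genes in limma. Endothelial markers were lower for 4 of 7 in Mu-RE against KO mice of 10 weeks and for 0 in the other 3. Heat shock genes were lower for 2 and 5 of 8 in Mu-RE against KO mice of 10 and 26 weeks and for 3 and 7 of 8 in RE-RE against Br-RE mice. Their summed level had medians of 528 FPKM in KO and 475 FPKM in Mu-RE mice of 26 weeks, and 526 and 446 FPKM in Br-RE and RE-RE mice. Whether this accompanied the lower Atf3 mouse by mouse was not tested. Of the 23 other immediate early genes, 5, 4, 6 and 5 were higher and 2, 5, 2 and 6 lower in the 4 comparisons, in the order just given. Leaving out 1 mouse per time point did not end any Atf3 call, and ended that of Btg2 in RE-RE against Br-RE mice without replicate 3 at 10 weeks (adjusted p = 0.0608) and without replicate 4 at 26 weeks (adjusted p = 0.0613).

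Age was compared first between 10 and 26 weeks. In WT mice on ALF Junb was higher at 26 weeks (17.5% of all genes) and Nr4a3 lower (17.2% of all genes). Junb had medians of 1.88 and 2.20 and rose by 0.58 ± 0.21 (adjusted p = 0.0324), with 16 of 22 mice of 26 weeks above the median at 10 weeks. Nr4a3 ran from -1.79 to 3.95 (median 0.60) at 26 weeks, 18 of 22 mice below the median at 10 weeks, and fell by 1.46 ± 0.50 (2.76-fold, adjusted p = 0.022). Egr1 at 0.81 (adjusted p = 0.0729), Ier2 at 0.42 (adjusted p = 0.0577) and Atf3 at -1.14 (adjusted p = 0.0587) did not pass. Junb did not pass without the first, the second or the fourth mouse of each time point, nor Nr4a3 without the first, the third or the fourth. Without WT replicate 1 of 10 weeks, 3 members were higher: Junb, Egr1 (0.92) and Ier2 (0.48). Without ZT 4 and ZT 8, Junb was at -0.04 and none was higher, while Nr4a3 (-1.69, adjusted p = 0.0101) and Atf3 (-1.86, adjusted p = 0.0184) were lower. Those times were chosen because WT mice of 26 weeks were high there, so leaving them out by itself favours lower values at 26 weeks. Endothelial markers were lower for 6 of 7 and red blood cell genes higher for 5 of 5 at 26 weeks, and their part was not tested.

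In KO mice Junb and Btg2 were higher at 26 than at 10 weeks (13.3% of all genes) and 0 of 9 were lower in limma (11.9% of all genes), with 2 members at an unadjusted p under 0.05 among 4772 genes. Junb ran from 1.03 to 2.66 at 10 weeks and from 1.54 to 5.52 at 26 weeks, with 23 of 24 of the latter above the median of the former. It rose by 1.04 ± 0.19 (2.05-fold, adjusted p = 4.61e-05). Btg2 rose by 0.67 ± 0.16 (1.6-fold, adjusted p = 0.00137), with all 24 mice of 26 weeks above the median at 10 weeks. Heat shock genes were higher for 6 of 8 in this comparison too. Fibroblast markers were lower for 4 of 5 (median summed level 141 FPKM at 10 and 64.4 FPKM at 26 weeks), endothelial markers for 3 of 7 and nerve and glia markers for 1 of 3 (10.8 and 6.98 FPKM). Their part in the rise of Junb and Btg2 was not tested. The difference between KO and WT mice itself differed between the ages for 0 members in limma (9.21% of all genes higher and 7.14% lower), with 3 members at an unadjusted p under 0.05 among 3795 genes, Atf3 at 1.42 (adjusted p = 0.0717) and Btg2 at 0.69 (adjusted p = 0.0966) among them. Without ZT 4 and ZT 8 it differed for Atf3 (2.17, adjusted p = 0.011), Btg2 (1.28, adjusted p = 0.000697) and Junb (1.01, adjusted p = 0.00475). Those times were dropped after WT mice of 26 weeks were seen to be high there, which by itself favours such calls. They are no separate test.

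Old WT mice were compared with WT mice of 26 weeks, both on ALF. Of the 9 members 5 were lower in old mice, Fos, Jun, Junb, Egr1 and Ier2 (11.4% of all genes), and 0 higher in limma (11.7% of all genes), with 6 members at an unadjusted p under 0.05 among 4599 genes. All 9 were below 0, with a median of -0.51 against 0.01 over all genes. Egr1 ran from -1.89 to 1.48 (median -0.23) in old and from -1.17 to 4.40 (median 1.48) in younger mice. All 24 old mice were below the younger median, and Egr1 fell by 1.78 ± 0.30 (3.4-fold, adjusted p = 4.33e-05). Fos ran from -0.84 to 2.96 (median 0.45) in old mice, 23 of 24 below the younger median, and fell by 1.73 ± 0.41 (3.32-fold, adjusted p = 0.00224). Ier2 fell by 1.08 ± 0.16 (2.11-fold, adjusted p = 6.5e-06), Junb by 0.72 ± 0.21 (adjusted p = 0.0105) and Jun by 0.34 ± 0.12 (adjusted p = 0.0301). Fosb, without the limit, differed by -1.97 ± 0.37 (adjusted p = 0.000179).

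The old mice shared the comparison group described above, and without ZT 4 and ZT 8 only Egr1 (-1.14, adjusted p = 0.0176) and Ier2 (-0.63, adjusted p = 0.00167) stayed lower, with Fos at -1.05 (adjusted p = 0.0969) and Junb at -0.19. Without the second mouse of each time point 3 were lower. Of the 20 feedback inhibitors 6 were lower and 1 higher in old mice, and of 23 other immediate early genes 2 lower and 1 higher. Fibroblast markers were lower for 5 of 5 (58.0 to 214 FPKM summed in mice of 26 weeks and 17.6 to 200.1 in old mice), and macrophage and lymphoid markers for 1 of 7, with their part not tested.

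Feeding time was compared within genotypes. In WT mice of 26 weeks, TRF went with lower Fos, Jun, Junb, Egr1 and Ier2, again 5 of 9 (16.8% of all genes), and 0 higher in limma (20.2% of all genes), with 6 members at an unadjusted p under 0.05 among 5999 genes. The WT mice on ALF serve as the reference here and in the comparison with old mice, so the resemblance of the lists is not independent. Fos ran from -1.52 to 2.85 (median 0.23) on TRF, 22 of 24 mice below the ALF median, and fell by 1.89 ± 0.41 (3.71-fold, adjusted p = 0.000625). Egr1 ran from -1.37 to 3.58 (median 0.02) on TRF and differed by -1.37 ± 0.33 (2.58-fold lower, adjusted p = 0.00145). Junb had medians of 2.20 on ALF and 1.65 on TRF and fell by 0.99 ± 0.21 (1.98-fold, adjusted p = 0.000386). Ier2 differed by -0.75 ± 0.16 (adjusted p = 0.000427) and Jun by -0.28 ± 0.11 (adjusted p = 0.0473), and Fosb, without the limit, by -1.29 ± 0.39 (adjusted p = 0.0109). Without ZT 4 and ZT 8 none of the 9 passed in limma (Fos -0.82, adjusted p = 0.146; Egr1 -0.58, adjusted p = 0.253; Junb -0.39, adjusted p = 0.183). Endothelial markers were higher on TRF for 4 of 7 (median summed level 50.6 FPKM on ALF and 72.4 FPKM on TRF), smooth muscle and pericyte markers for 3 of 4 and nerve and glia markers for 2 of 3, and macrophage and lymphoid markers were lower for 1 of 7. Their part in the lower members was not tested.

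**Figure D3:**
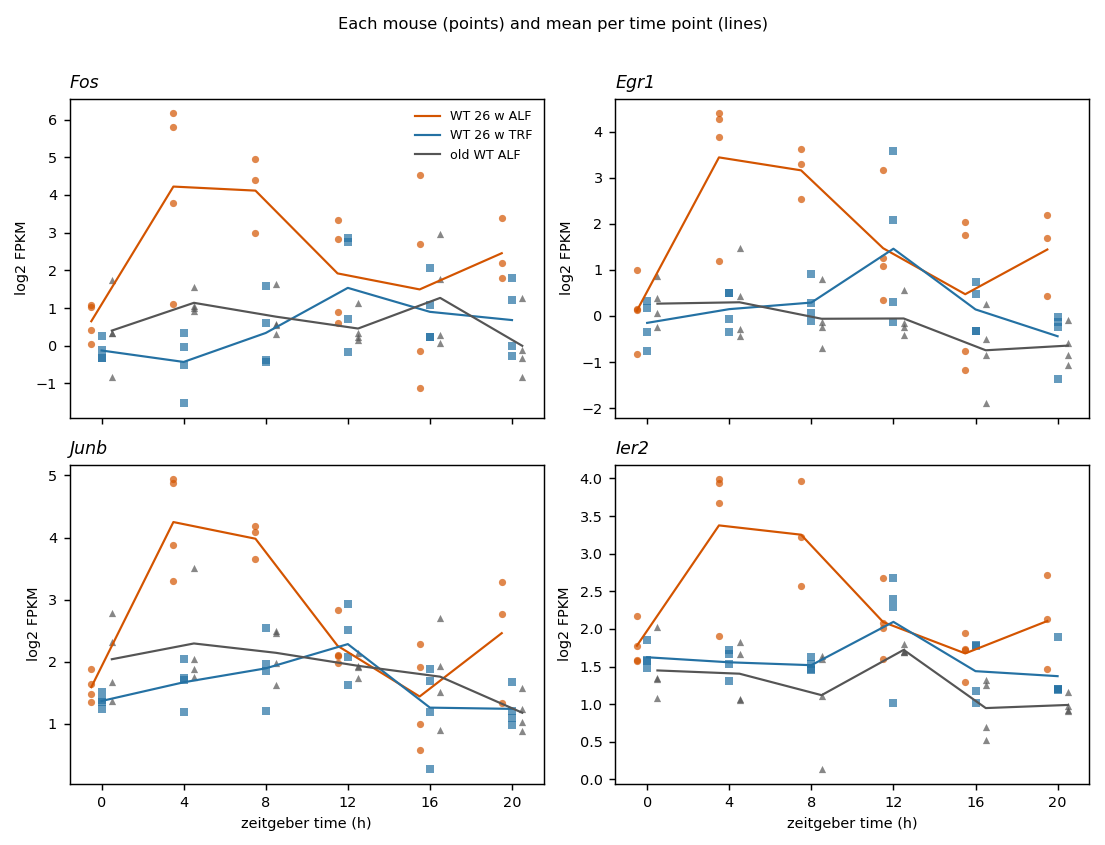
Fos, Egr1, Junb and Ier2 (log2 FPKM, vertical axis) by zeitgeber time (hours, horizontal axis) in WT mice of 26 weeks on ALF, WT mice of 26 weeks on TRF and old WT mice on ALF; points are mice and lines join the means. The ALF mice of 26 weeks stand on average above the other groups mainly at ZT 4 and ZT 8, where Fos averages 4.22 and 4.12 against -0.43 and 0.34 on TRF.

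On TRF against ALF no member passed in KO, Mu-RE or old mice. In KO mice 0 members were higher (4.35% of all genes) or lower (7.42% of all genes) in limma, with Junb alone (-0.51, adjusted p = 0.0899) at an unadjusted p under 0.05 among 3601 genes. In Mu-RE mice 0 were higher (7.09%) or lower (6.99%), with Nr4a1 alone (-0.33, adjusted p = 0.12) among 3919 genes. In old WT mice 0 were higher (0.0389%) or lower (0.0156%), with Btg2 (0.39, adjusted p = 0.261) and Egr1 (0.81, adjusted p = 0.239) among 2194 genes. The effect of TRF was compared with that in WT mice directly. Fos differed in KO mice by 1.71 ± 0.57 (adjusted p = 0.022), the 1 member higher (8.55% of all genes; 14.5% lower, 0 members). In Mu-RE mice Fos (1.38 ± 0.51), Egr1 (1.46 ± 0.46), Junb (0.77 ± 0.26) and Ier2 (0.68 ± 0.21) were higher (adjusted p 0.009 to 0.0323; 14.5% of all genes; 15.8% lower, 0 members). In old mice the same 4 members were higher, Fos by 2.06 ± 0.54, Egr1 by 2.19 ± 0.48, Junb by 1.29 ± 0.30 and Ier2 by 0.97 ± 0.23 (adjusted p 0.00803 to 0.0317; 0.591% of all genes; 0.685% lower, 0 members). At an unadjusted p under 0.05 there were 3, 4 and 7 members in KO, Mu-RE and old mice among 4691, 5347 and 2200 genes. All of these contrasts hold the same WT mice on ALF, and without ZT 4 and ZT 8 none of the 9 calls passed in limma. The differences were then 0.79 for Fos in KO mice, -0.02 to 0.23 for the 4 members in Mu-RE mice, and 1.49 for Fos, 1.84 for Egr1, 0.84 for Junb and 0.62 for Ier2 in old mice, from fewer mice. Leaving out the first mouse of each time point also left 0 calls in all 3 contrasts, and leaving out the second left 0 in KO, 1 in Mu-RE and 0 in old mice.

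The daily course of each member was fitted as a 24 h cosine curve in each group. In WT mice of 26 weeks on TRF 6 of 9 members were rhythmic by this fit, beside 33.8% of all genes. The median amplitude of the 9 members there was 0.52 log2 units, against 0.18 over all genes. Nr4a3 had the widest swing, with an amplitude of 2.1 ± 0.42, a peak at ZT 19.1 and an 18.3-fold change from trough to peak (adjusted p = 0.00224). Its mean was -2.37 ± 0.38 log2 FPKM (SD, n = 4) at ZT 12 and 3.03 ± 1.69 (n = 4) at ZT 16. The 4 mice at ZT 16 (0.78 to 4.66) and the 4 at ZT 20 (1.57 to 2.45) were all above every mouse at the other 4 times, the highest of which was 0.13. Atf3 followed with an amplitude of 1.23 ± 0.31 and a peak at ZT 18.1 (adjusted p = 0.0138), rising from a mean of -0.12 at ZT 12 to 2.49 at ZT 16.

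Btg2 (amplitude 0.38 ± 0.09, peak ZT 15.9, adjusted p = 0.00611), Nr4a1 (0.52 ± 0.12, peak ZT 14.7, adjusted p = 0.00546) and Fos (0.86 ± 0.24, peak ZT 14, adjusted p = 0.0253) peaked earlier in the dark phase. Junb (0.46 ± 0.14, adjusted p = 0.0315) had its fitted peak at ZT 9.23, in the light phase. By time point, Junb (2.29) and Fos (1.54) both had their highest mean at ZT 12. Egr1 (0.71 at ZT 10.7, adjusted p = 0.0611), Jun and Ier2 did not pass. With the 6 times fitted as separate levels, or the variance shared by all 15 groups, 2 members passed in this group, Nr4a3 (adjusted p 1.97e-05 and 0.000277) and Atf3 (adjusted p 0.0379 and 0.00592). Without the third mouse of each time point 3 members passed, and without the fourth 2. In this group 9 of 23 other immediate early genes, 10 of 20 feedback inhibitors, 14 of 26 upstream factors and 6 of 8 heat shock genes were rhythmic. These counts are to be read beside the share of all genes given above for this group, to which the first is close.

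In Mu-RE mice on TRF the members were fitted in the same way, and the difference in course between Mu-RE and WT mice on TRF was not tested. Atf3 (amplitude 1.24 ± 0.21, peak ZT 16.8, 5.54-fold, adjusted p = 0.00277) and Btg2 (0.39 ± 0.08, peak ZT 15.2, 1.71-fold, adjusted p = 0.0138) passed, 2 of 9 beside 6.14% of all genes. Atf3 averaged -0.72 ± 0.40 at ZT 4 and 2.44 ± 0.39 at ZT 16 (SD, n = 4 each), and the highest value at ZT 4, -0.16, lay under the lowest at ZT 16, 2.0. Nr4a3 averaged -1.97 at ZT 12 and 3.21 at ZT 16, with an amplitude of 1.44 ± 0.46 that did not pass (adjusted p = 0.136). Fitted peaks of members that did not pass in Mu-RE mice lay at ZT 6.08 for Fos, ZT 8.74 for Nr4a1, ZT 4.89 for Junb and ZT 6.62 for Egr1. With the times as separate levels 5 members passed, Atf3, Btg2, Junb, Ier2 and Nr4a3 (adjusted p = 0.0108 for the last). Without the second mouse of each time point none passed in limma, and without the third or the fourth 1. In KO mice on TRF 0 of 9 were rhythmic in limma (3.87% of all genes), with 2 at an unadjusted p under 0.05 among 3839 genes. Nr4a3 had an amplitude of 1.29 ± 0.44 there (adjusted p = 0.129). Its mean also rose from ZT 12 to ZT 16 on ALF, in WT mice of 10 weeks (-0.09 to 3.77) and 26 weeks (-1.14 to 1.68). Mu-RE mice (-0.52 to 2.45) and RE-RE mice (-0.45 to 1.87) of 26 weeks rose too. So did Br-RE mice, which lack Bmal1 in muscle, at 10 weeks (0.12 to 1.97) and 26 weeks (-0.24 to 0.70). Old mice on ALF (-0.83 to 1.01) and Mu-RE mice of 10 weeks (-0.22 to 0.19) rose as well. On ALF the mean of Nr4a3 fell in KO mice of 10 weeks (0.88 to 0.38) and 26 weeks (0.82 to 0.69) and in RE-RE mice of 10 weeks (1.80 to 1.34).

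**Figure D4:**
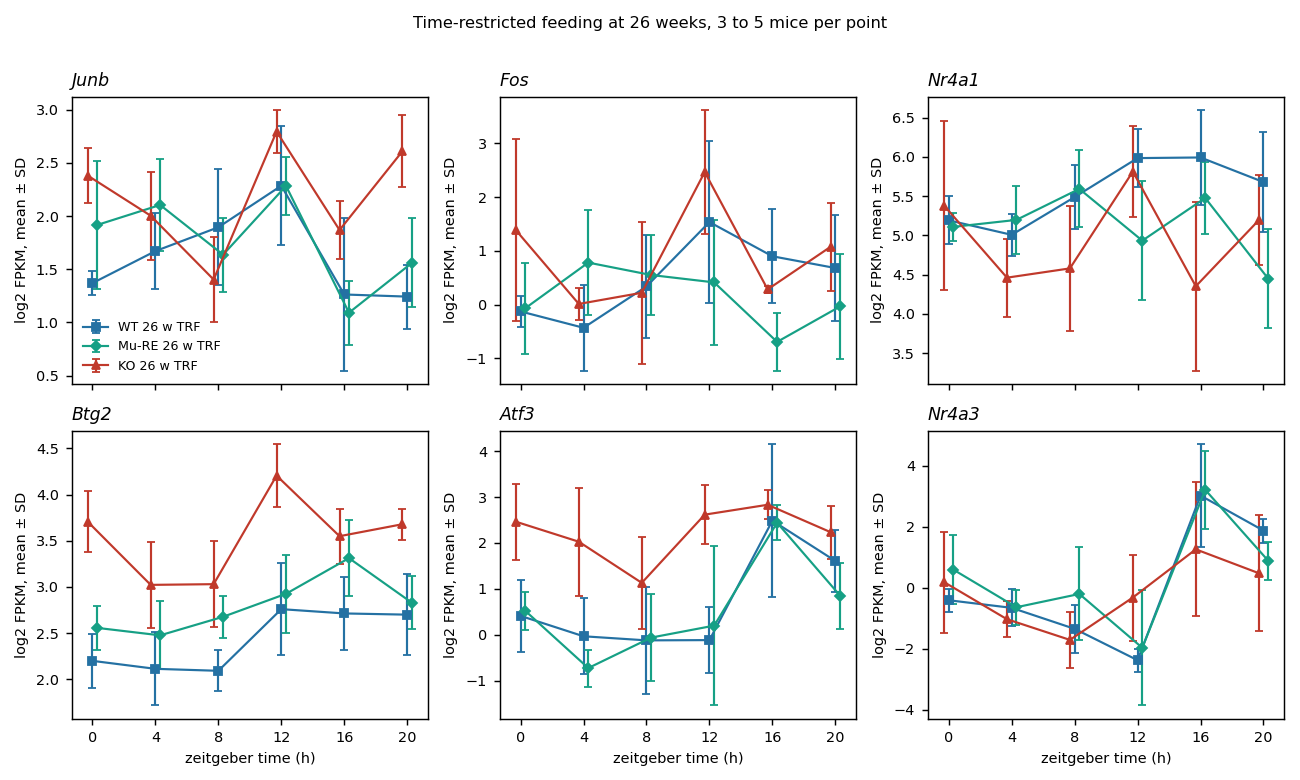
Mean level ± SD (log2 FPKM, vertical axis) of Junb, Fos, Nr4a1, Btg2, Atf3 and Nr4a3 by zeitgeber time (hours, horizontal axis) in WT, Mu-RE and KO mice of 26 weeks on TRF, 3 to 5 mice per point. Nr4a3 climbs between ZT 12 and ZT 16 from -2.37 to 3.03 in WT and from -1.97 to 3.21 in Mu-RE mice, and from -0.32 to 1.26 in KO mice. Groups on ALF, some of which also rose between these times, are not drawn.

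Elsewhere few members were rhythmic. Junb passed in WT mice of 26 weeks on ALF (amplitude 1.32 ± 0.27, peak ZT 6.14, 6.26-fold, adjusted p = 0.0468), 1 of 9 beside 0.973% of all genes. Its means there were 1.59 at ZT 0, 4.25 at ZT 4 and 3.98 at ZT 8. Jun passed in RE-RE mice of 26 weeks (amplitude 0.45, peak ZT 19.7, 1.86-fold, adjusted p = 0.0221), 1 of 9 beside 0.56% of all genes, though not with the times as separate levels. Neither Junb in WT nor Jun in RE-RE mice passed without the first, the second or the fourth mouse of each time point. None of 9 passed in limma in the mice of 10 weeks, whether WT (4.82% of all genes), Mu-RE (0.0467%), KO (0.0389%), RE-RE (0.56%) or Br-RE (22.6%), where 2, 2, 1, 1 and 0 members had an unadjusted p under 0.05. None passed in KO (0%), Mu-RE (0%) or Br-RE (0.599%) mice of 26 weeks on ALF, where 2, 0 and 0 had such a p, nor in old mice on ALF (1.36%) or TRF (5.19%), where 2 and 1 had one. In Br-RE mice of 10 weeks, with 2903 rhythmic genes in all, the amplitudes of the members had a median of 0.41.

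The daily courses themselves were then compared between groups. On TRF against ALF in WT mice 1 member differed, Btg2 (adjusted p = 0.0468, 3.14% of all genes), with 8 of 9 members at an unadjusted p under 0.05 among 3134 genes. The peak of Btg2 was at ZT 6.67 with an amplitude of 0.70 on ALF and at ZT 15.9 with 0.38 on TRF. This call for Btg2 was lost without a term for sex (adjusted p = 0.0519) and with the times as separate levels (adjusted p = 0.155), and without replicates 1, 2 or 4 (adjusted p 0.177 to 0.386). In limma 0 members differed between KO and WT mice of 10 weeks (0.483% of all genes; 2 members at an unadjusted p under 0.05 among 919 genes) or 26 weeks (0.163%; 5 members among 800 genes), between Br-RE and KO mice of 10 weeks (0.498%; 1 member) or 26 weeks (0%; 1 member), or between RE-RE and Br-RE mice of 10 weeks (0.148%; 0 members) or 26 weeks (0.07%; 1 member). The same held for old against younger WT mice (0%; 2 members), and for TRF against ALF in KO (0%; 0 members), Mu-RE (3.98%; 1 member) and old mice (0%; 0 members). The lowest adjusted p among the members in KO against WT mice of 26 weeks was that of Ier2 (0.0786).

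Within a group, time point and sex, mice high in Fos tended to be high in most other members. Over 352 mice, the deviation of Fos from its group, time and sex mean correlated with that of Egr1 at Pearson's r = 0.756 and Spearman's rho = 0.687, Btg2 at r = 0.667 and rho = 0.639, Ier2 at r = 0.647 and rho = 0.582, Fosb at r = 0.633 and rho = 0.602, and Junb at r = 0.597 and rho = 0.570. Jun (r = 0.541, rho = 0.511), Nr4a1 (r = 0.533, rho = 0.526) and Atf3 (r = 0.329, rho = 0.305) followed. For these 8 the permutation p was 1e-05, the smallest that 100000 resamples can give (1.13e-05 adjusted over the 9 relations computed). Nr4a3 was the weakest (r = 0.133, rho = 0.168, permutation p = 0.0132 and 0.00552). The permutation shuffled Fos deviations within group and time point, with the sexes together. Each deviation is from a mean of few mice of the same sex, so deviations are tied to each other. The 352 values thus hold less information than their number, and these p-values tend to be too small. For Nr4a3 they do not settle whether the relation differs from 0. Without the 2 mice farthest from the median of Fos, r was between 0.149 for Nr4a3 and 0.739 for Egr1. For Egr1 r was 0.713 in the mice of 10 weeks, 0.758 in those of 26 weeks and 0.818 in old mice, and for Nr4a3 0.118, 0.0537 and 0.405.

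The strongest relation of Nr4a3 among the members was with Atf3 (r = 0.549), and its value with Ier2 was r = -0.039. Beyond the members, the genes most like Fos by this measure were Dusp1 (r = 0.705), a MAP kinase phosphatase, the deubiquitinase Otud1 (0.665), the endothelial early response gene Apold1 (0.651), the kinase Plk3 (0.594) and Klf2 (0.528). The next 5 were Nr4a2 (0.495), Fosl2 (0.494), Ccn1 (0.483), Dnajb1 (0.476) and Klf4 (0.468). Values of one mouse share its library, depth and freezing, so these correlations describe mice and not links between genes.

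**Figure D5:**
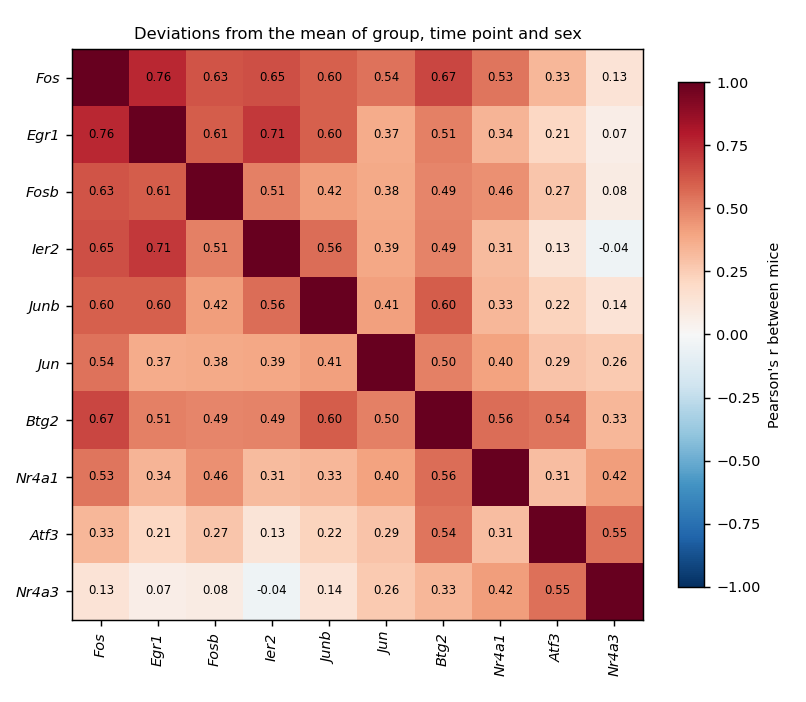
Pearson's r between each pair of the 10 immediate early genes over 352 mice, as a colour scale, on deviations from the mean of group, time point and sex. Fos with Egr1 (0.756) and Egr1 with Ier2 (0.71) are among the strongest pairs, while Nr4a3 stands out for its low values with Fos (0.133) and Ier2 (-0.039).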

How the data were processed

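The authors deposited log2 FPKM values for all genes. Per the submitters' processing notes the tools were limma 3.44.1, edgeR 3.30.0, featureCounts 1.6.2, HISAT2 2.1.0, Trim Galore 0.5.0 and FastQC 0.11.8, with build GRCm38. Per the labels, 360 libraries were sequenced as 150 bp pairs (25 M on average) and 8 were excluded. The lowest gene mean was -6.64, and log2 of 0.01 is -6.64, the value a constant of 0.01 FPKM would give. Sex means were equal to within 1e-05 in every gene, so sexes were not compared. Depth was recovered from value steps (96.7% of low values within 0.1 of a whole read in the median library).

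Models were fitted in limma 3.58.1 (R 4.3.3, trend and robust): level, cosine and sine of 24 h per group plus sex, in the groups compared, with Benjamini-Hochberg adjustment over 12849 genes. Spread was tested on absolute deviations averaged per group and time point, since single deviations gave too many calls in simulated data. The members, the gene lists and the naming rule (all members, up to 3 genes per list with the smallest adjusted p in KO against WT, and the 10 genes most like Fos) were chosen with earlier results of these data known. Alternatives covered the filter, pseudocount, centring, variance, weights, sex, time, gene length, replicate number and left-out mice. Python 3.11.15 with scipy 1.17.1 gave the permutation tests.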

Additional observations from a re-analysis of the deposited data

Results flagged for a closer look

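For 9 values the response of a member to TRF differed between groups by the test of the difference itself. In KO against WT mice it differed for Fos (1.71 log2 units). In Mu-RE against WT mice it differed for Fos (1.38), Egr1 (1.46), Junb (0.77) and Ier2 (0.68). In old against WT mice of 26 weeks it differed for Fos (2.06), Egr1 (2.19), Junb (1.29) and Ier2 (0.97). All 9 contrasts hold the same WT mice on ALF. Without ZT 4 and ZT 8, the times at which several of those mice are high, Fos was at 0.79 in KO mice, Fos, Egr1, Junb and Ier2 at -0.02, 0.23, 0.16 and 0.20 in Mu-RE mice, and at 1.49, 1.84, 0.84 and 0.62 in old mice, with no adjusted p under 0.05 in limma. In old mice most of each difference remained, from fewer mice and with the remaining times fitted as separate levels. Fos ran from 1.11 to 6.17 in the 7 WT mice at those times, and why some of them were high was not tested.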

How the results depend on the processing

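Counts below are of members passing in limma, with the value given in the report first. Shares of all genes under each setting are not given, so a changed count is not a result about the members alone. The cause of each change was not tested. The setting without ZT 4 and ZT 8 also fits the remaining times as separate levels. Without ZT 4 and ZT 8 (chosen after seeing the data): KO against WT at 26 weeks 4 to 0 lower, WT at 26 against 10 weeks 1 to 0 higher and 1 to 2 lower, old against younger WT 5 to 2 lower, TRF in WT 5 to 0 lower, the age difference of KO against WT 0 to 3 higher, and the TRF contrasts of KO (1 to 0), Mu-RE (4 to 0) and old mice (4 to 0). There, the sign turned for Junb (-0.040), Egr1 (-0.073) and Ier2 (-0.12) in WT at 26 against 10 weeks, for Nr4a3 (0.29) and Btg2 (0.13) on TRF in WT, and for Fos (-0.020) in the Mu-RE contrast. With 1 FPKM added, KO against WT at 26 weeks went from 2 to 1 higher and the rhythm difference on TRF in WT from 1 to 2. Without sex the latter was 0. Median centring gave 2 higher in WT at 26 against 10 weeks.

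Array weights gave 2 rhythm differences in KO against WT at 26 weeks (0 before), 3 higher in WT at 26 against 10 weeks, 5 and 1 rhythm differences on TRF in WT and Mu-RE, and 1 rhythmic in old mice on TRF. Shared variance gave 2 rhythm differences in KO against WT at 26 weeks, 0 higher in Mu-RE against KO at 26 weeks, 3 higher and 2 lower in WT at 26 against 10 weeks, 4 rhythm differences on TRF in WT, 1 lower on TRF in KO, 2 higher for the age difference of KO against WT, and 1 rhythmic in old mice on TRF, 1 in WT at 10 weeks, 3 in WT at 26 weeks on ALF and 2 on TRF. Times as levels gave 1 higher in RE-RE against Br-RE at 26 weeks, 3 higher and 2 lower in WT at 26 against 10 weeks, 2 rhythm differences on TRF in WT, 1 lower on TRF in KO, 1 higher for the age difference of KO against WT, and 1, 5, 0, 2, 2 and 2 rhythmic in KO on TRF, Mu-RE on TRF, RE-RE at 26 weeks, WT at 10 weeks, WT at 26 weeks on ALF and on TRF. A length covariate gave 0 lower in WT at 26 against 10 weeks, 2 higher in the Mu-RE contrast and 0 rhythmic in WT at 26 weeks on ALF.

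Leaving out mice gave these ranges. KO against WT at 10 weeks: 2 to 5 lower and 0 to 1 rhythm differences. At 26 weeks: 1 to 2 higher, 2 to 5 lower and 0 to 1 rhythm differences. Mu-RE against KO at 26 weeks: 0 to 1 higher. RE-RE against Br-RE: 1 to 2 lower at 10 and 2 to 4 at 26 weeks. WT at 26 against 10 weeks: 0 to 3 higher and 0 to 1 lower. Old against younger WT: 3 to 6 lower. TRF in WT: 4 to 5 lower and 0 to 2 rhythm differences. Br-RE against KO at 10 weeks: 0 to 1 rhythm differences. TRF contrasts: 0 to 2 in KO, 0 to 4 in Mu-RE and 0 to 4 in old mice. Rhythmic: 0 to 2 in Mu-RE on TRF, 0 to 1 in RE-RE at 26 weeks, 0 to 1 in WT at 26 weeks on ALF and 2 to 6 on TRF. Junb in KO against WT at 26 weeks turned to -0.15 without replicate 3 of each time point and to -0.025 without KO replicate 11.

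With the replicate number as a block, the rhythm difference of KO against WT at 26 weeks went from 0 to 1 member. The numbers name different mice: of 22 shared by KO and WT at 10 weeks 8 correlated above 0.1, and of 21 at 26 weeks 5, with 1 mouse each best matched by its own number. Of all counts recomputed 1132 stayed within 1.5 times and 89 did not. Of single member values 1829 kept side and direction, 130 lost a call, 100 gained one and 8 turned sign. Depth limits Fosb most, at 12.8 reads in the median library.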
